A study of Mus musculus with 24 samples.

Results

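Gene expression in white fat was compared, on Illumina bead arrays, between mice on a low fat diet and mice on a high fat diet enriched in EPA/DHA, the fatty acids eicosapentaenoic acid and docosahexaenoic acid. The arrays were taken by their tissue and diet labels: 4 arrays of white fat per diet, 8 of the 24 in the series. All animals were male C57Bl/6J mice, and for each diet 4 mice had been picked to stand for their group in body weight, plasma triglyceride and plasma cholesterol. Another white fat group of 4 arrays, from mice on a high fat diet made with corn oil, entered the model to share its estimate of the spread and is given beside the results. The remaining 12 arrays are brown fat under the same 3 diets. The depot, the mice's age and the feeding time are not given in the sources used here. The extraction text names skeletal muscle while the tissue label says white adipose tissue. The mean of 11 adipocyte markers was 11.39 to 11.57 in the low-fat and 11.38 to 11.62 in the EPA/DHA arrays, and that of the 10 skeletal muscle markers bright enough to be tested, of 14 with a probe, was 7.92 to 8.13 and 7.86 to 8.13. The scale starts at 6.95, and levels of different probes are not on a common footing.

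White adipocytes store triglyceride made from dietary fatty acids and from glucose, and release it by lipolysis. EPA and DHA are long-chain omega-3 fatty acids of fish oil: they are ligands of the nuclear receptors called PPARs and of the receptor Ffar4, they lower the processing of the lipogenic factor SREBP-1 in liver, and they are precursors of lipid mediators made by cyclooxygenases, lipoxygenases and epoxygenases. Corn oil is rich in the omega-6 linoleic acid. Sterol synthesis is controlled by SREBP-2, which is held in the endoplasmic reticulum by the Insig proteins when sterols are plentiful.

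All values are the log2-scale expression values of the deposited table, which run from 6.95 to 14.79, so on a plain log2 scale a difference of 1 is a doubling. Whether the authors' log2 values were also variance-stabilised cannot be told from the table. Adjusted p-values are those of limma, with Benjamini-Hochberg adjustment over all probes tested, and the threshold was 0.05. Differences are EPA/DHA minus low-fat ± the standard error, with 4 arrays a group. Of 13349 genes tested, 4 passed (0.0300%), 2 of them higher with EPA/DHA (0.0150%) and 2 lower (0.0150%). At an unadjusted p of 0.05 or less there were 1209 genes (9.06%), 606 higher (4.54%) and 603 lower (4.52%), and 49.8% of all genes had a difference above 0. The median difference was -0.0001, and the 95% interval of the difference had a median half-width of 0.114. For 12504 genes (93.7%) the whole interval lay within 0.5 of 0, and for 13186 (98.8%) within 1 of it. Correlations between the 8 low-fat and EPA/DHA arrays of white fat ran from 0.9806 to 0.9954. Quantile normalisation made the arrays' value distributions equal, so a change in the total RNA signal cannot be seen, and in a whole tissue fewer cells of a type cannot be told apart from less RNA per cell.

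The 4 genes past the threshold were Mcrip2 and Qrsl1, which rose with EPA/DHA, and Rprml and Fgfrl1, which fell. Rprml belongs to the reprimo family, named for a p53-responsive protein that halts the cell cycle. It read 8.35, 8.41, 8.24 and 8.54 in the low-fat arrays against 7.80, 7.77, 7.84 and 7.85 with EPA/DHA, a difference of -0.57 ± 0.07 (adjusted p = 0.0397). Every low-fat array was above every EPA/DHA array, and the corn-oil arrays, at 7.71, 7.61, 7.66 and 7.89, overlapped the EPA/DHA values. Fgfrl1 encodes a receptor that binds fibroblast growth factors but lacks the kinase domain of its relatives. Its values were 10.14, 10.19, 10.07 and 10.20 on the low fat diet and 9.78, 9.85, 9.90 and 9.83 with EPA/DHA, a difference of -0.31 ± 0.04 (adjusted p = 0.0464). The groups did not overlap, and the corn-oil arrays were lower still, at 9.63, 9.62, 9.77 and 9.71.

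Qrsl1 encodes a subunit of the amidotransferase that makes glutaminyl-tRNA in mitochondria. It stood at 8.20, 8.36, 8.14 and 8.17 in the low-fat and at 8.57, 8.57, 8.52 and 8.65 in the EPA/DHA arrays, higher by 0.36 ± 0.05 (adjusted p = 0.0464). The groups did not overlap, and the corn-oil arrays, at 8.36, 8.45, 8.37 and 8.44, lay between the group means. Mcrip2, also called Fam195a, had values of 8.72, 8.64, 8.71 and 8.84 on the low fat diet against 9.35, 9.27, 9.25 and 9.13 with EPA/DHA, higher by 0.52 ± 0.07 (adjusted p = 0.0464). Unlike the other three, its corn-oil mean lay on the opposite side of low-fat from EPA/DHA, with arrays at 8.37, 8.36, 8.50 and 8.68, and EPA/DHA exceeded corn oil by 0.77 ± 0.07 (adjusted p = 0.00141). A second Mcrip2 probe read 8.95, 8.75, 8.72 and 9.03 against 9.23, 9.41, 9.36 and 9.21, a difference of 0.44 ± 0.08 (adjusted p = 0.192), without overlap. This probe was the brighter one in white fat, with means of 8.86 and 9.30 beside 8.73 and 9.25, so Mcrip2 was not called with genes read from their brightest white fat probe. These calls lie close to the threshold: leaving out any 1 of the 8 arrays left only Qrsl1 called of the 4, without low-fat array 2, and without EPA/DHA array 2 a different pair, Itgae and Mmab, passed. Without 1 array the differences themselves ran from -0.62 to -0.52 for Rprml, from -0.34 to -0.29 for Fgfrl1, from 0.34 to 0.41 for Qrsl1 and from 0.49 to 0.56 for Mcrip2. With the 8 arrays alone 0 genes passed limma's threshold (1206 at an unadjusted p of 0.05 or less), and with no filter on dim probes also 0 (1554 of 19053).

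**Figure D1:**
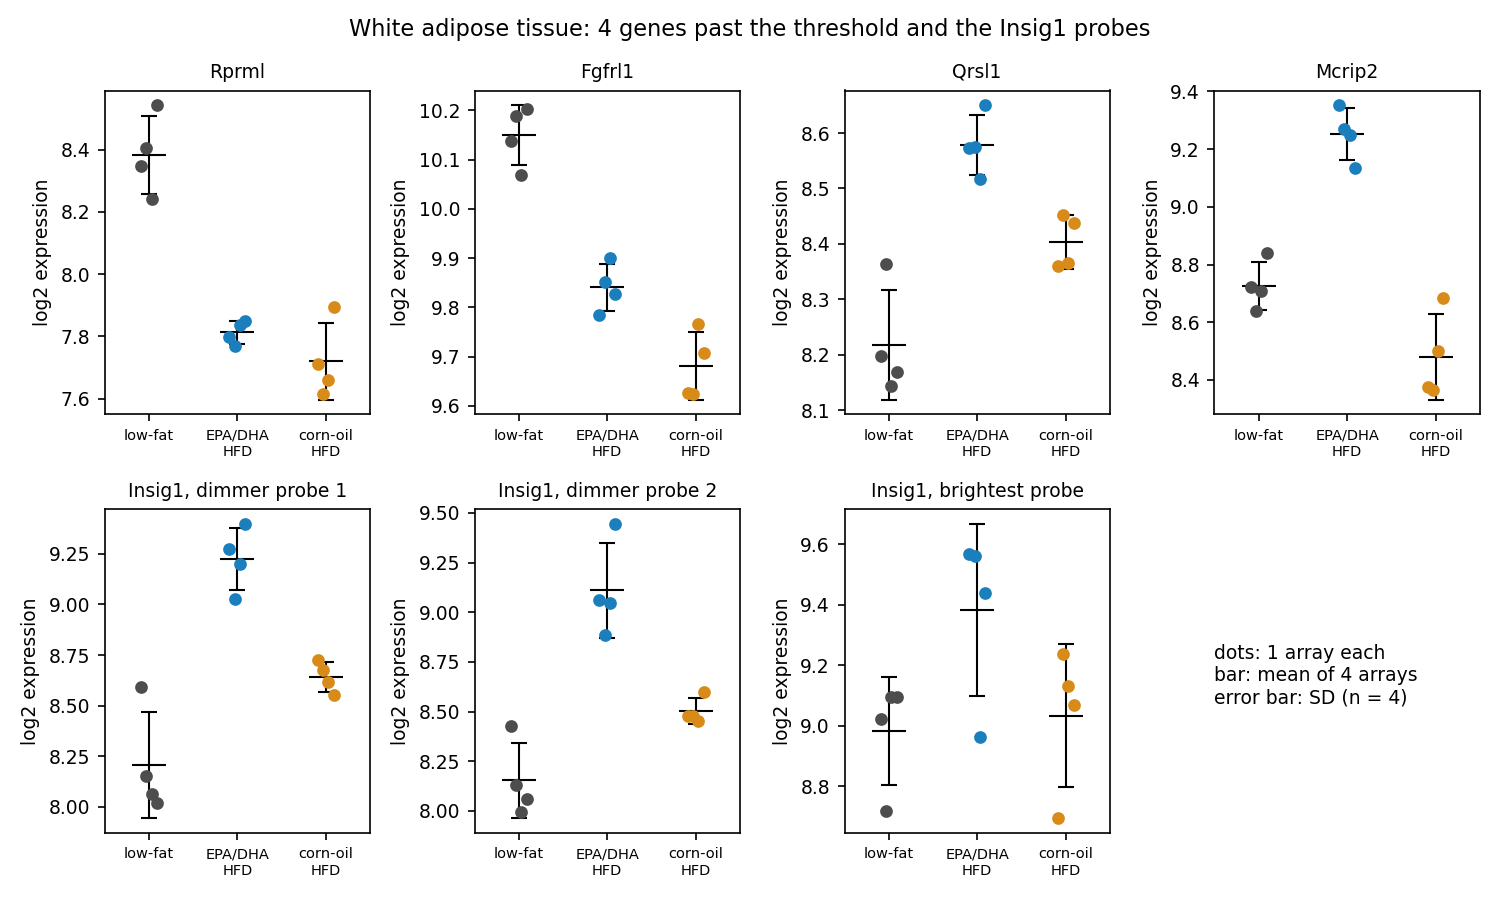
Log2 expression on each white fat array for the 4 genes past the threshold and for 3 probes of Insig1, by diet; dots are arrays, the bar is the mean and the whisker the SD (n = 4). The EPA/DHA dots of Rprml and Fgfrl1 lie below the low-fat dots, those of Qrsl1 and Mcrip2 above them, and 2 Insig1 probes separate the diets while the brightest overlaps.

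None of the next 6 genes by p passed the threshold, although under single alternatives 2 of them did: Pdhb with a trended and robust prior (adjusted p = 0.0255, over all alternatives 0.0255 to 0.46) and Adal with array weights (adjusted p = 0.0489, over all alternatives 0.0489 to 0.536). The 6 were Adal, a deaminase of methylated adenosine monophosphate (0.18 ± 0.03, adjusted p = 0.0655), Slc36a2, a proton-coupled amino acid transporter of the brown and beige adipocyte surface (0.31 ± 0.05, adjusted p = 0.0788), C1galt1, which starts the core of mucin-type sugar chains (-0.35 ± 0.06, adjusted p = 0.137), Acsl3, Mtfp1 and Pdhb. Slc36a2 read 7.66, 7.65, 7.61 and 7.48 in the low-fat arrays and 7.90, 8.02, 7.84 and 7.87 with EPA/DHA, so the groups did not overlap. Acsl3 activates long-chain fatty acids on nascent lipid droplets; it differed by 0.41 ± 0.07 (adjusted p = 0.155) from low-fat, and by a like 0.38 (adjusted p = 0.0211) on corn oil. Mtfp1, a protein of mitochondrial fission, differed by 0.11 ± 0.02 (adjusted p = 0.173) at a level of 7.17 to 7.32 near the floor. Pdhb, a subunit of the pyruvate dehydrogenase that feeds the citric acid cycle, read 9.98, 9.82, 9.61 and 9.66 against 10.23, 10.66, 10.51 and 10.45, a difference of 0.69 ± 0.12 (adjusted p = 0.176). Its corn-oil arrays, 9.43 to 9.94, lay with the low-fat ones, and EPA/DHA exceeded corn oil by 0.82 ± 0.12 (adjusted p = 0.0109). A second Pdhb probe gave 0.72 ± 0.18 (adjusted p = 0.316), and a dim one -0.03 (adjusted p = 0.921).

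Where several probes named a gene, the brightest on average over the 24 arrays stood for it, and other probes add 5 calls in named genes. Of 27168 probes tested, 13 passed (0.0479%), 4 of them without a gene name. Insig1, which holds the sterol-regulatory factors in the endoplasmic reticulum and is itself one of their targets, had 2 such probes. The first read 8.59, 8.15, 8.06 and 8.02 in the low-fat and 9.27, 9.03, 9.20 and 9.40 in the EPA/DHA arrays, higher by 1.02 ± 0.12 (adjusted p = 0.0397). The other read 8.43, 8.13, 8.0 and 8.06 against 9.06, 8.89, 9.05 and 9.45, higher by 0.96 ± 0.12 (adjusted p = 0.0397). Neither set of values overlapped between the diets, and the corn-oil arrays of both probes, at 8.45 to 8.73, lay between the group means. Insig1's brightest probe did not separate the diets: it read 9.02, 8.72, 9.10 and 9.10 against 9.57, 9.56, 8.96 and 9.44, a difference of 0.40 ± 0.15 (adjusted p = 0.575). Without 1 array the 2 called probes ran from 0.96 to 1.15 and from 0.84 to 1.05, and each passed in 2 of those 8 fits. The probes of this gene therefore disagree in size, and another, at 7.04 to 7.12, was too dim to be tested.

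Klf4, Ndrg1 and Rilpl2 were called by another probe than their brightest. Klf4, a zinc-finger factor of the early response and of vessel walls, read 7.92, 7.98, 7.92 and 8.04 on the low fat diet and 7.50, 7.74, 7.60 and 7.51 with EPA/DHA at 1 probe, a difference of -0.38 ± 0.05 (adjusted p = 0.0464), while its brightest probe gave -0.33 ± 0.09 (adjusted p = 0.422) and another -0.15 (adjusted p = 0.437). Ndrg1, a stress-responsive gene induced by low oxygen, read 9.07, 9.21, 9.37 and 9.35 against 8.78, 8.70, 8.55 and 8.68, a difference of -0.57 ± 0.08 (adjusted p = 0.0464), and -0.46 ± 0.10 (adjusted p = 0.24) at its brightest probe. Rilpl2, a Rab-interacting protein of the cilium, read 7.45, 7.50, 7.52 and 7.47 against 7.76, 7.64, 7.72 and 7.70, a difference of 0.22 ± 0.03 (adjusted p = 0.0464), and 0.37 ± 0.07 (adjusted p = 0.201) at its brightest probe. In each gene the called probe and the brightest probe differed in the same direction.

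For 42 lists of genes, 26 of pathways and 16 of cell types, members were counted by their brightest probe. Over all genes 49.8% were above 0, and 4.54% were higher and 4.52% lower at an unadjusted p of 0.05 or less. None of the 42 held a member past the threshold, so the members named from here on by their list were chosen after their values were seen, and their values describe these arrays. Genes of cholesterol synthesis and uptake lay above low-fat with EPA/DHA. All 17 tested members had a difference above 0, 11 at an unadjusted p of 0.05 or less and 0 lower, with a median of 0.23, against 49.8%, 4.54% and -0.0001 over all genes. For 4 of the 17 every EPA/DHA array was above every low-fat array, as for 2.20% of all genes; a further 2.46% had every EPA/DHA array below, 4.66% in both directions together. The smallest p was that of Msmo1, the methylsterol monooxygenase, at 8.55, 8.36, 8.31 and 8.16 on the low fat diet and 8.80, 8.81, 9.21 and 9.21 with EPA/DHA, a difference of 0.66 ± 0.12 (adjusted p = 0.176). Msmo1 passed with the trended and robust prior (adjusted p = 0.0227, over all alternatives 0.0227 to 0.465). Cyp51, the lanosterol demethylase, read 7.99, 7.91, 7.77 and 7.59 against 8.02, 8.22, 8.35 and 8.43, a difference of 0.44 ± 0.11 (adjusted p = 0.3). Both genes had every EPA/DHA array above every low-fat array. Lss, the lanosterol synthase, read 8.34, 7.99, 8.14 and 7.81 against 8.19, 8.82, 8.73 and 9.06, a difference of 0.63 ± 0.16 (adjusted p = 0.346), with EPA/DHA array 1 among the low-fat values. Hsd17b7, which reduces a sterol ketone, read 8.62, 8.71, 8.54 and 8.26 against 8.82, 8.82, 8.93 and 9.09, a difference of 0.39 ± 0.10 (adjusted p = 0.379). The smallest difference of the list was 0.04, at the sterol carrier Stard4.

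Sterol genes lay above low-fat on corn oil too. The list's median on corn oil was 0.19, and EPA/DHA minus corn oil was 0.18 ± 0.12 for Msmo1 (adjusted p = 0.537), -0.02 ± 0.11 for Cyp51 (adjusted p = 0.959) and -0.22 ± 0.10 for Hsd17b7 (adjusted p = 0.377). Corn oil itself passed the threshold against low-fat for Cyp51 (0.46, adjusted p = 0.0485) and Hsd17b7 (0.60, adjusted p = 0.0168). Both high fat comparisons share the same low-fat arrays. Without EPA/DHA array 4, 6 of the 17 sterol genes were left at an unadjusted p of 0.05 or less, and without low-fat array 4 also 6, while the fit over 24 arrays left 7; the count was 14, and the list's median 0.38, without EPA/DHA arrays 1 and 2.

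The promoters of Insig1, Msmo1, Lss and Cyp51 are shown because Insig1 has the called probes and the other three have the smallest p of the sterol list. They are marked for the NF-Y box, a partner site of the sterol-regulatory factors, and the E-box. Each is the 250 bases before the gene's start in RefSeq's GRCm38.p6 annotation, 5′ to 3′ on the gene's strand. Insig1 lies at chr5:28071162-28071411 on the plus strand, Msmo1 at chr8:64733579-64733828 on the minus strand, Lss at chr10:76531355-76531604 on the plus strand and Cyp51 at chr5:4104698-4104947 on the minus strand. Capitals mark CCAAT, or ATTGG where it lies on the other strand, and the palindromic E-box CACGTG.
Insig1: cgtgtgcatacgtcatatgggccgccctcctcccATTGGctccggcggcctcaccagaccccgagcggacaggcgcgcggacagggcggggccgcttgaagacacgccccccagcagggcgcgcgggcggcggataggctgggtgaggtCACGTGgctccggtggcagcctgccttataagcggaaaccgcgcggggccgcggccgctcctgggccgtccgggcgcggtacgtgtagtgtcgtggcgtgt
Msmo1: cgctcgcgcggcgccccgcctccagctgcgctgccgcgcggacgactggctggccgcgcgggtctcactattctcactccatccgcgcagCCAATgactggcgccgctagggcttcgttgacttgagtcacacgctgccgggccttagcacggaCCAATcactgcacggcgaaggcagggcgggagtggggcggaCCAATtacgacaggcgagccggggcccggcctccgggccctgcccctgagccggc
Lss: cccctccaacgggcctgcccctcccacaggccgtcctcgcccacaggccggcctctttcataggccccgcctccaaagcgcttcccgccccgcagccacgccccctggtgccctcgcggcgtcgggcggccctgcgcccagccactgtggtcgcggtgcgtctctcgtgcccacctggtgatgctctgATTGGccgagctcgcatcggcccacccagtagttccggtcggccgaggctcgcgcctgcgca
Cyp51: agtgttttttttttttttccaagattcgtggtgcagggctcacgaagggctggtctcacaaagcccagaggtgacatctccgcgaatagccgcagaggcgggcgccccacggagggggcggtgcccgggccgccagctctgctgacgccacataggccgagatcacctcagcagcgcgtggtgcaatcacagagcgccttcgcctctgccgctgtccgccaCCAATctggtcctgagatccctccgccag
Msmo1 held 3 NF-Y boxes and each of the other windows 1, and the E-box was in the Insig1 window. Searched on both strands, CCAAT was in 33.8% of all 32851 such windows. Counted by gene, in any of its windows, it was in 39.7% of 10727 tested genes and in 14 of the 14 sterol genes with a window. By the same count it was in 8 of 12 clock genes and in 9 of 27 genes of oxidative phosphorylation. The E-box was in 6.02% of all windows. By gene it was in 9.33% of those tested, 3 of the 14 sterol genes, 3 of the 12 clock genes and 1 of the 27. The sterol regulatory element as TCACNCCAC, letters that do not contain CCAAT, was in 1.05% of all windows and in 0 of the 14; these letters are one strict form of the site.

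The clock genes differed mostly the other way. Of 14 tested members 3 were above 0, 2 higher and 7 lower at an unadjusted p of 0.05 or less, with a median of -0.20, against 4.54% and 4.52% over all genes. Dbp, an output factor that the clock drives strongly over the day, read 11.82, 10.50, 11.10 and 11.58 on the low fat diet and 9.24, 11.32, 9.43 and 8.82 with EPA/DHA, a difference of -1.55 ± 0.53 (adjusted p = 0.52). Per2, a repressor of the loop, read 9.37, 9.03, 9.50 and 9.76 against 8.55, 8.63, 8.76 and 7.72, a difference of -1.0 ± 0.29 (adjusted p = 0.424). Per2 did not overlap between the diets, whereas Dbp of EPA/DHA array 2 lay among the low-fat values. Nr1d2, the repressor Rev-erb beta, differed by -0.39 ± 0.14 (adjusted p = 0.526), and Tef, a relative of Dbp, by -0.43 ± 0.17 (adjusted p = 0.583). Arntl, the activator also called Bmal1, went the other way, at 7.42, 7.63, 7.53 and 7.57 against 7.98, 7.57, 7.81 and 8.26, a difference of 0.37 ± 0.13 (adjusted p = 0.527). EPA/DHA array 2, the array with high Dbp, was also the one with low Arntl. The corn-oil median of the list was -0.17, from arrays compared with the same low-fat controls. Without EPA/DHA array 1, or without array 4, 4 members, and without array 1 of both diets 2, were lower at an unadjusted p of 0.05 or less. The list's median was -0.10 without low-fat array 1, -0.11 without EPA/DHA array 3, -0.08 without array 1 of both diets, -0.11 with no filter on dim probes and -0.31 with a filter at the 60th percentile. With the mean of 9 brown adipocyte markers as a covariate, Dbp differed by -2.365 and passed (adjusted p = 0.0471, over all alternatives 0.0471 to 0.779). Time of tissue collection is not in the sources used here, and its part in these values was not tested.

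**Figure D2:**
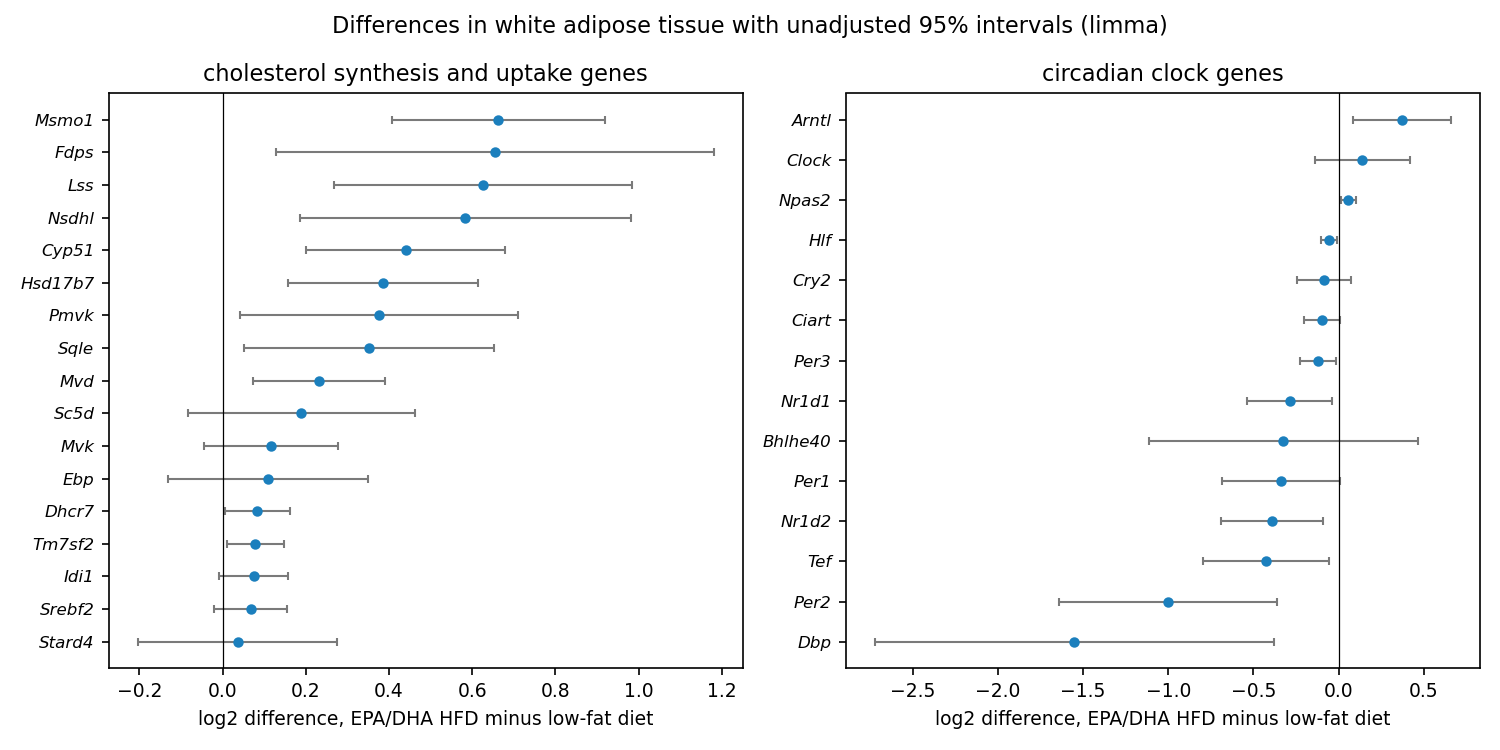
EPA/DHA minus low-fat difference in log2 expression, with its unadjusted 95% interval, for the 17 cholesterol genes and the 14 clock genes tested. All 17 cholesterol points lie to the right of 0, while 3 clock points, among them Arntl, lie right and 11 left.

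Lipogenic genes were mostly above 0 with EPA/DHA. Of 24 tested members 19 were above 0, 7 at an unadjusted p of 0.05 or less and 0 lower, and the median was 0.39. Over all genes these were 49.8%, 4.54%, 4.52% and -0.0001. For 1 of the 24 every EPA/DHA array was above every low-fat array, as for 2.20% of all genes. Me1, the malic enzyme that supplies NADPH, read 11.19, 10.62, 10.51 and 10.14 in the low-fat and 10.86, 11.45, 11.70 and 11.51 in the EPA/DHA arrays, a difference of 0.76 ± 0.23 (adjusted p = 0.44). Pcx, the pyruvate carboxylase that makes oxaloacetate for citrate export, differed by 0.40 ± 0.10 (adjusted p = 0.327), and Aacs, which makes acetoacetyl-CoA in the cytosol, by 0.58 ± 0.19 (adjusted p = 0.49). Fasn, the fatty acid synthase, read 8.64, 8.20, 7.81 and 7.76 against 7.86, 8.57, 8.74 and 8.46, a difference of 0.31 ± 0.22 (adjusted p = 0.821). Scd1, the delta-9 desaturase, read 14.17, 13.97, 14.30 and 14.25 against 14.36, 14.01, 14.51 and 14.44, a difference of 0.16 ± 0.12 (adjusted p = 0.843). Both overlapped between the diets, and Scd1, like Lep, Adipoq and Lpl, lies near the top of the scale, where a difference can be understated. The desaturases Fads1 (0.02) and Fads2 (-0.01), which make EPA and DHA from shorter precursors, lay close to 0.

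Thrsp, a nuclear protein induced with lipogenesis, separated the high fat diets. It read 12.45, 12.39, 11.87 and 12.09 on the low fat diet, 12.50, 12.49, 12.62 and 12.84 with EPA/DHA and 11.47, 11.34, 11.14 and 11.56 with corn oil. EPA/DHA was 0.41 ± 0.14 above low-fat (adjusted p = 0.492) without overlap, and 1.23 ± 0.14 above corn oil (adjusted p = 0.00241), while corn oil was below low-fat by -0.82 (adjusted p = 0.015). The corn-oil median of the lipogenic list was 0.04. Without low-fat array 1, whose Me1 and Fasn were the highest of its group, 11 of the 24 members were above 0 at an unadjusted p of 0.05 or less, and without EPA/DHA array 4 it was 4; without EPA/DHA arrays 1 and 2 it was 11.

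Triglyceride synthesis, NADPH supply and glycolysis differed less evenly. The shares of all genes were 49.8% above 0, and 4.54% higher and 4.52% lower at an unadjusted p of 0.05 or less. Of 14 genes of glycerol phosphate and triglyceride synthesis 10 were above 0, 5 higher and 1 lower at an unadjusted p of 0.05 or less, with Agpat2, an acyltransferase of the pathway, at 0.68 ± 0.24 (adjusted p = 0.534), the mitochondrial glycerol phosphate dehydrogenase Gpd2 at 0.52 ± 0.19 (adjusted p = 0.544) and the glycerol channel Aqp7 at 0.28 ± 0.08 (adjusted p = 0.387). The member that was lower was Pck1, which makes glycerol phosphate from small precursors: it read 8.75, 8.70, 8.85 and 9.25 against 8.24, 8.89, 8.45 and 8.42, a difference of -0.39 ± 0.15 (adjusted p = 0.583). Pck1 was lower still on corn oil, at 7.83, 8.04, 8.14 and 8.19, a difference of -0.84 from low-fat (adjusted p = 0.0199). In the pentose phosphate and NADPH list 7 of 10 were above 0, 3 higher and 2 lower; H6pd, the hexose phosphate dehydrogenase of the endoplasmic reticulum, read 11.76, 11.39, 11.54 and 11.67 against 11.30, 11.17, 11.11 and 11.09, a difference of -0.42 ± 0.09 (adjusted p = 0.236) without overlap. Among 15 genes of glycolysis and glucose uptake 13 were above 0 and 3 at an unadjusted p of 0.05 or less, with the phosphofructokinase Pfkl at 0.39 ± 0.12 (adjusted p = 0.438) and 0.63 above corn oil (adjusted p = 0.0276).

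Genes of fatty acid uptake and of lipid droplets were mixed. Of 19 uptake genes 13 were above 0, 2 higher and 1 lower at an unadjusted p of 0.05 or less, and the median was 0.02. Angptl8, a feeding-induced regulator of lipoprotein lipase, read 8.06, 7.73, 7.82 and 7.73 on the low fat diet and 8.32, 8.23, 8.51 and 8.89 with EPA/DHA, a difference of 0.65 ± 0.16 (adjusted p = 0.299) without overlap. Gpihbp1, which carries lipoprotein lipase to the capillary wall, differed by -0.29 ± 0.11 (adjusted p = 0.538). Lpl, the lipase itself, read 14.62, 14.63, 14.48 and 14.62 against 14.63, 14.63, 14.47 and 14.57, a difference of -0.01 ± 0.07 (adjusted p = 0.989). The fatty acid transporter Cd36 differed by -0.00 ± 0.11 (adjusted p = 0.999), from a probe that read only 7.36 to 7.72 in the 8 arrays, near the floor of the scale. Of 17 genes of lipolysis and lipid droplets 11 were above 0, with 3 higher and 1 lower at an unadjusted p of 0.05 or less. For 3 of the 17 every EPA/DHA array was above every low-fat array, as for 2.20% of all genes. The droplet coat protein Plin2 read 9.85, 9.91, 9.79 and 9.24 against 10.21, 10.58, 10.14 and 10.33, a difference of 0.61 ± 0.15 (adjusted p = 0.312) without overlap. Corn oil gave 0.63 for Plin2 (adjusted p = 0.0549).

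Mitochondrial genes stood above low-fat with EPA/DHA by small amounts, while their corn-oil values lay mostly below low-fat. Of 35 genes of oxidative phosphorylation 34 were above 0, 18 at an unadjusted p of 0.05 or less and 0 lower, with a median of 0.21; 8 did not overlap between the diets, against 2.20% of all genes in that direction. The member below 0 was Cox6a1 (-0.02). Sdhd, a membrane anchor of succinate dehydrogenase, read 8.40, 8.17, 8.47 and 8.43 against 8.52, 8.90, 8.73 and 9.02, a difference of 0.42 ± 0.11 (adjusted p = 0.353). Uqcrc2, a core subunit of complex III, differed by 0.30 ± 0.08 (adjusted p = 0.356), and Ndufv2, of complex I, by 0.27 ± 0.07 (adjusted p = 0.349). The corn-oil median of the list was -0.10, and against corn oil 6 of the 35 passed the threshold, all higher with EPA/DHA, where 313 of all genes did so in either direction (2.34%); Uqcrc2 was 0.64 above corn oil (adjusted p = 0.00431).

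Genes of the citric acid cycle were likewise above 0. Of 17 tested members 16 were above 0, 9 higher and 1 lower at an unadjusted p of 0.05 or less, beside 49.8%, 4.54% and 4.52% of all genes. The median was 0.23, and 6 passed as higher than corn oil, beside 2.34% of all genes in either direction. Dlat, the acetyltransferase of pyruvate dehydrogenase, read 8.22, 7.97, 8.03 and 8.01 against 8.27, 8.30, 8.39 and 8.46, a difference of 0.30 ± 0.07 (adjusted p = 0.24) without overlap. Suclg1, of succinyl-CoA ligase, differed by 0.38 ± 0.10 (adjusted p = 0.356) and Idh3g, of isocitrate dehydrogenase, by 0.22 ± 0.06 (adjusted p = 0.39). Idh3g was 0.50 above corn oil (adjusted p = 0.00355). The member below 0, also at an unadjusted p of 0.05 or less, was Sucla2 (-0.07). In mitochondrial fatty acid oxidation 21 of 24 were above 0 and 6 at an unadjusted p of 0.05 or less, with a median of 0.17; the hydratase Echs1 differed by 0.26 ± 0.07 (adjusted p = 0.422), the carnitine carrier Slc25a20 by 0.36 ± 0.13 (adjusted p = 0.527) and the dehydrogenase Acadm by 0.32 ± 0.12 (adjusted p = 0.538).

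One EPA/DHA array carried brown adipocyte transcripts. Fewer mitochondrial genes were at an unadjusted p of 0.05 or less without it, which also held for most other single arrays. Ucp1, the uncoupling protein of brown and beige fat, read 8.02, 7.08, 7.09 and 7.21 on the low fat diet and 7.20, 10.63, 7.18 and 7.76 with EPA/DHA, and corn-oil array 4 read 9.38; the EPA/DHA difference was 0.84 ± 0.76 (adjusted p = 0.868). Cidea, a lipid droplet protein of those cells, read 9.38, 7.92, 8.31 and 8.72 against 9.19, 12.09, 8.98 and 9.63, a difference of 1.39 ± 0.71 (adjusted p = 0.703). Both were highest in EPA/DHA array 2, and Cidea of the other EPA/DHA arrays overlapped the low-fat ones. Of 9 brown adipocyte markers 8 were above 0, and their mean was 7.74 to 8.20 in the low-fat arrays and 8.05, 9.76, 8.02 and 8.31 with EPA/DHA. Without EPA/DHA array 2, 34 of the 35 genes of oxidative phosphorylation were above 0 with a median of 0.15, and 9 were at an unadjusted p of 0.05 or less; with the brown adipocyte mean as a covariate these numbers were 31, 0.11 and 7. Leaving out any other 1 of the 8 arrays gave medians of 0.20 to 0.25. At an unadjusted p of 0.05 or less these fits gave 11 (without low-fat array 4) to 22 genes (without EPA/DHA array 1). The trended and robust prior gave 11. For the citric acid cycle 15 genes were above 0 without EPA/DHA array 2 and 14 with the covariate. In each fit 5 were at an unadjusted p of 0.05 or less. For fatty acid oxidation these fits gave 21 and 19 above 0, with 4 and 1 at that p. Any other 1 array left out gave 7 to 12 for the citric acid cycle and 3 to 8 for fatty acid oxidation. Their medians were 0.15 with the covariate for the citric acid cycle, and 0.11 without the array and 0.07 with the covariate for fatty acid oxidation. Without low-fat array 3, and also without EPA/DHA arrays 1 and 2, 3 genes of fatty acid oxidation were at an unadjusted p of 0.05 or less. The covariate's own markers include Cox7a1 and Cox8b of the oxidative phosphorylation list, Cpt1b of the fatty acid oxidation list and Elovl3 of the lipogenic list, so for these genes a smaller difference is built into that fit. The sterol genes kept 17 above 0 in both, with 13 and 10.

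**Figure D3:**
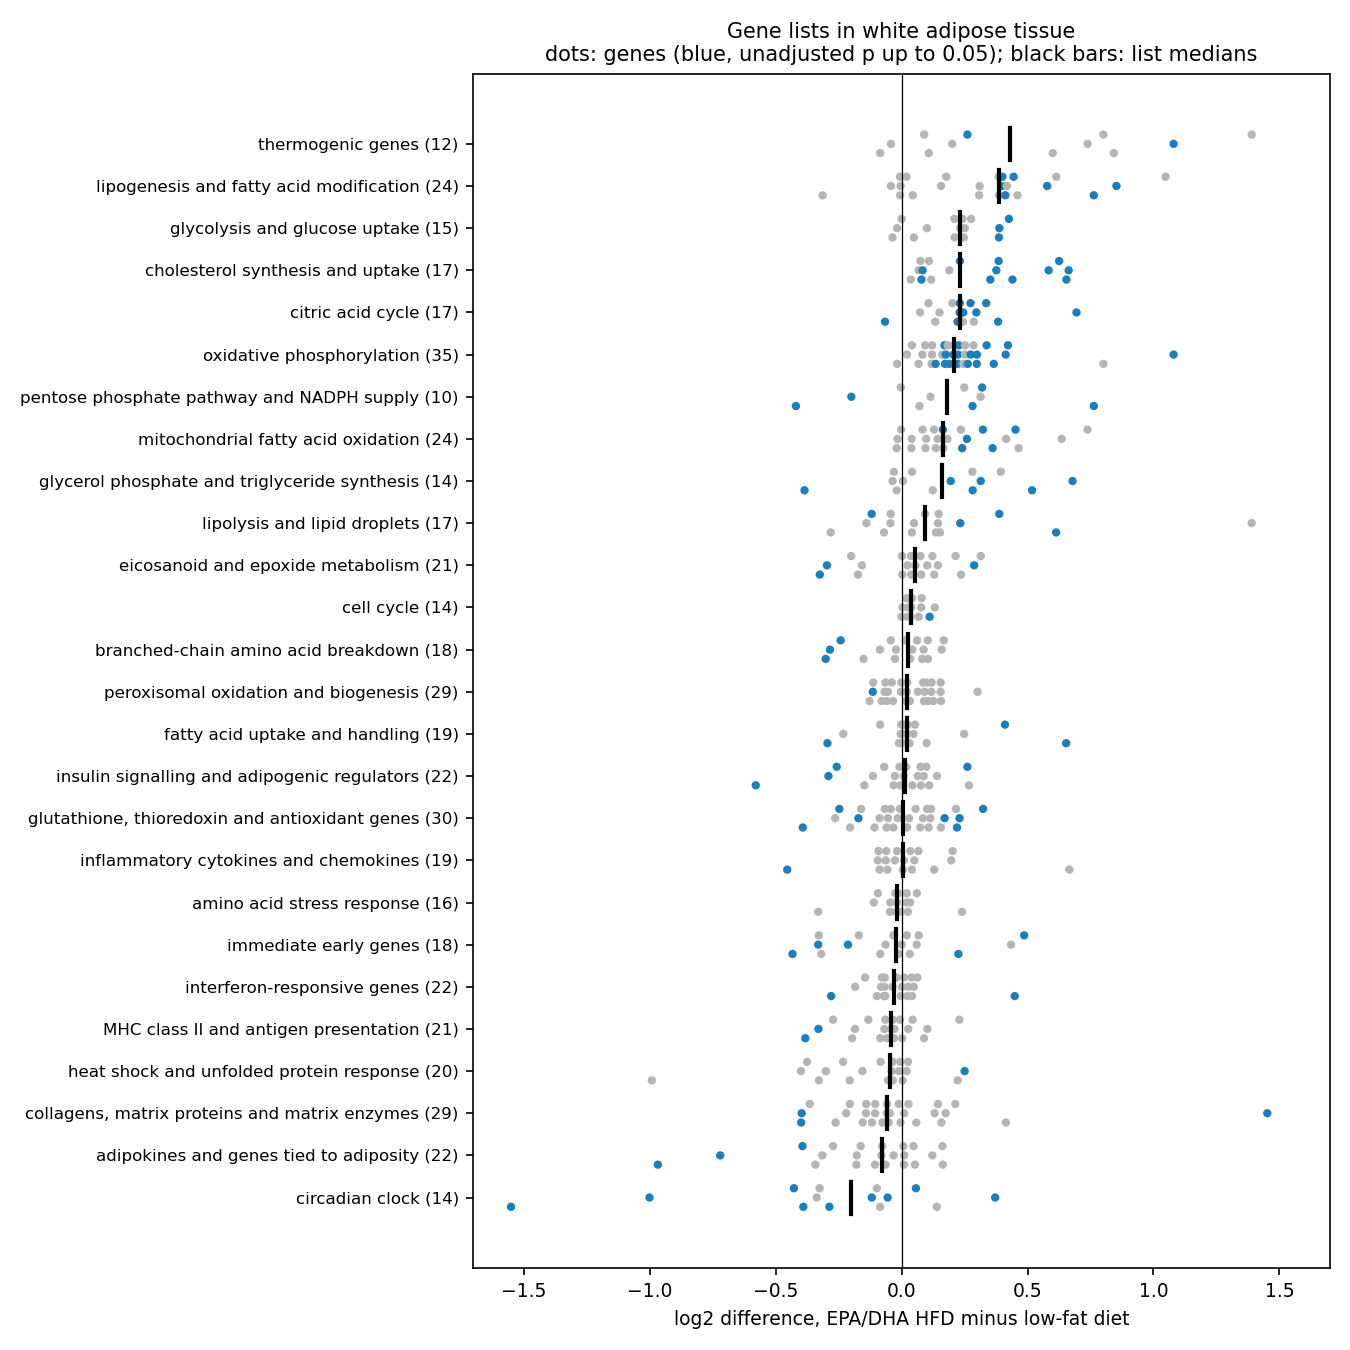
EPA/DHA minus low-fat differences in log2 expression of every tested gene in the 26 pathway lists, one dot a gene, with the list's median as a black bar and unadjusted p of 0.05 or less in blue. The cholesterol and oxidative phosphorylation lists lie almost wholly to the right of 0 and the clock list lies mostly to the left, while the thermogenic and lipogenic lists have the highest medians (0.43 and 0.39) and the clock list the lowest (-0.20).

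Of 22 tested adipokines and genes tied to adiposity 8 were above 0, with 0 higher and 3 lower at an unadjusted p of 0.05 or less, against 4.52% lower over all genes, and a median of -0.08. The 3 were Nnat, the natriuretic peptide clearance receptor Npr3 (-0.72) and the growth factor Bmp3 (-0.39), none of which passed the threshold. Lep, which encodes leptin and follows fat mass, read 13.31, 14.36, 14.14 and 13.21 on the low fat diet and 13.42, 13.72, 14.14 and 14.21 with EPA/DHA, a difference of 0.12 ± 0.28 (95% interval -0.49 to 0.73, adjusted p = 0.955). Adipoq, which encodes adiponectin, read 14.14, 14.35, 14.37 and 14.39 against 14.20, 14.17, 14.19 and 14.42, a difference of -0.06 ± 0.09 (adjusted p = 0.918). Both overlapped widely. Mest, an imprinted gene that tracks fat mass expansion, read 9.27, 10.22, 10.34 and 8.42 against 8.10, 9.95, 9.65 and 9.18, a difference of -0.34 ± 0.50 (95% interval -1.44 to 0.75, adjusted p = 0.924). Its corn-oil arrays read 10.19 to 11.44, and EPA/DHA minus corn oil was -1.78 ± 0.50 (adjusted p = 0.105). At its other 2 probes this difference passed, with -1.97 ± 0.41 (adjusted p = 0.0409) and -1.33 ± 0.28 (adjusted p = 0.0408). Nnat, the imprinted neuronatin, read 9.93, 10.28, 10.37 and 10.76 against 9.72, 8.93, 9.58 and 9.24, a difference of -0.97 ± 0.19 (adjusted p = 0.224) without overlap, beside -1.20 on corn oil (adjusted p = 0.0122).

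Among 22 genes of insulin signalling and adipogenesis 12 were above 0, with 1 higher and 3 lower at an unadjusted p of 0.05 or less. Irs2, an insulin receptor substrate, read 9.70, 9.27, 9.71 and 10.08 against 9.35, 9.05, 8.99 and 9.07, a difference of -0.58 ± 0.18 (adjusted p = 0.438). Cebpa, a master factor of adipogenesis, read 8.69, 8.69, 8.54 and 8.46 against 8.25, 8.17, 8.48 and 8.32, a difference of -0.29 ± 0.07 (adjusted p = 0.327), beside -0.48 on corn oil (adjusted p = 0.0115). Single arrays of both overlapped between the diets. Immediate early genes were mixed, with 8 of 18 above 0. Klf2, a flow-responsive factor of endothelium, read 9.87, 9.72, 9.62 and 10.15 against 9.48, 9.37, 9.38 and 9.40, a difference of -0.43 ± 0.09 (adjusted p = 0.234) without overlap, beside -0.46 on corn oil (adjusted p = 0.0258).

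Macrophage markers were high in EPA/DHA arrays 1 and 2 and not in the other two of the diet. Gpnmb, a transcript of lipid-laden macrophages, read 8.58, 8.86, 9.13 and 9.14 on the low fat diet and 12.10, 11.87, 8.68 and 9.01 with EPA/DHA, a difference of 1.49 ± 0.76 (adjusted p = 0.706). Its corn-oil arrays, at 9.97, 12.04, 10.74 and 11.31, were all above the low-fat ones. Mmp12, the macrophage elastase, read 7.25, 7.38, 7.70 and 7.17 against 9.58, 9.85, 7.65 and 8.23, a difference of 1.45 ± 0.42 (adjusted p = 0.425). Trem2, a lipid receptor of these cells, read 7.29, 7.41, 7.58 and 7.47 against 8.82, 9.01, 7.36 and 7.50. Array 3 lay within or close to the low-fat values for all of these, and array 4 did so for Gpnmb and Trem2 but was above them for Mmp12. Of the 20 macrophage markers 14 were above 0, with 1 higher and 1 lower at an unadjusted p of 0.05 or less. The list's median was 0.09, beside 0.42 on corn oil. The mean of the markers was 8.88 to 9.12 in the low-fat arrays, 9.58, 9.54, 8.77 and 8.92 with EPA/DHA and 9.19, 9.68, 9.36 and 9.55 with corn oil. With that mean as a covariate, and also without arrays 1 and 2, 0 genes passed limma's threshold in the whole comparison (1391 and 1364 at an unadjusted p of 0.05 or less), while 15 and 14 of the 17 sterol genes were above 0 at an unadjusted p of 0.05 or less. In the fit with the covariate the differences were -0.56 for Rprml, -0.30 for Fgfrl1, 0.36 for Qrsl1 and 0.49 for Mcrip2, and without arrays 1 and 2 they were -0.54, -0.29, 0.365 and 0.465, beside -0.57, -0.31, 0.36 and 0.52 with every array.

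The medians of the immune pathway lists lay near 0. Of 21 genes of antigen presentation 6 were above 0 and 2 were lower at an unadjusted p of 0.05 or less, with a median of -0.04 beside 0.25 on corn oil; 6 passed as lower with EPA/DHA than with corn oil, a comparison that called 2.34% of all genes in either direction. Cd74, the invariant chain of MHC class II, read 12.05, 12.21, 12.58 and 12.41 on the low fat diet, 11.89, 12.24, 11.81 and 11.99 with EPA/DHA and 12.99, 12.76, 12.89 and 12.85 with corn oil. It differed by -0.33 ± 0.12 from low-fat (adjusted p = 0.527) and by -0.89 ± 0.12 from corn oil (adjusted p = 0.00555). H2-D1, an MHC class I chain whose close relatives may share its probe, read 12.78, 12.75, 12.83 and 13.16 against 12.68, 12.43, 12.46 and 12.42, a difference of -0.38 ± 0.09 (adjusted p = 0.251) without overlap. Ccl2, the monocyte chemokine, read 7.18, 7.26, 7.28 and 7.24 against 7.57, 7.43, 7.24 and 7.23, a difference of 0.13 ± 0.11 (adjusted p = 0.863), and its 2 high arrays were those with high Gpnmb. Of 19 cytokine and chemokine genes 10 were above 0 and 1 was lower at an unadjusted p of 0.05 or less, the stromal chemokine Cxcl12 (-0.45 ± 0.13, adjusted p = 0.404). Of 22 interferon-responsive genes 9 were above 0, with the antiviral enzyme Rsad2 at 0.45 ± 0.14 (adjusted p = 0.456) and the chemokine Cxcl9 at -0.28 ± 0.11 (adjusted p = 0.579).

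**Figure D4:**
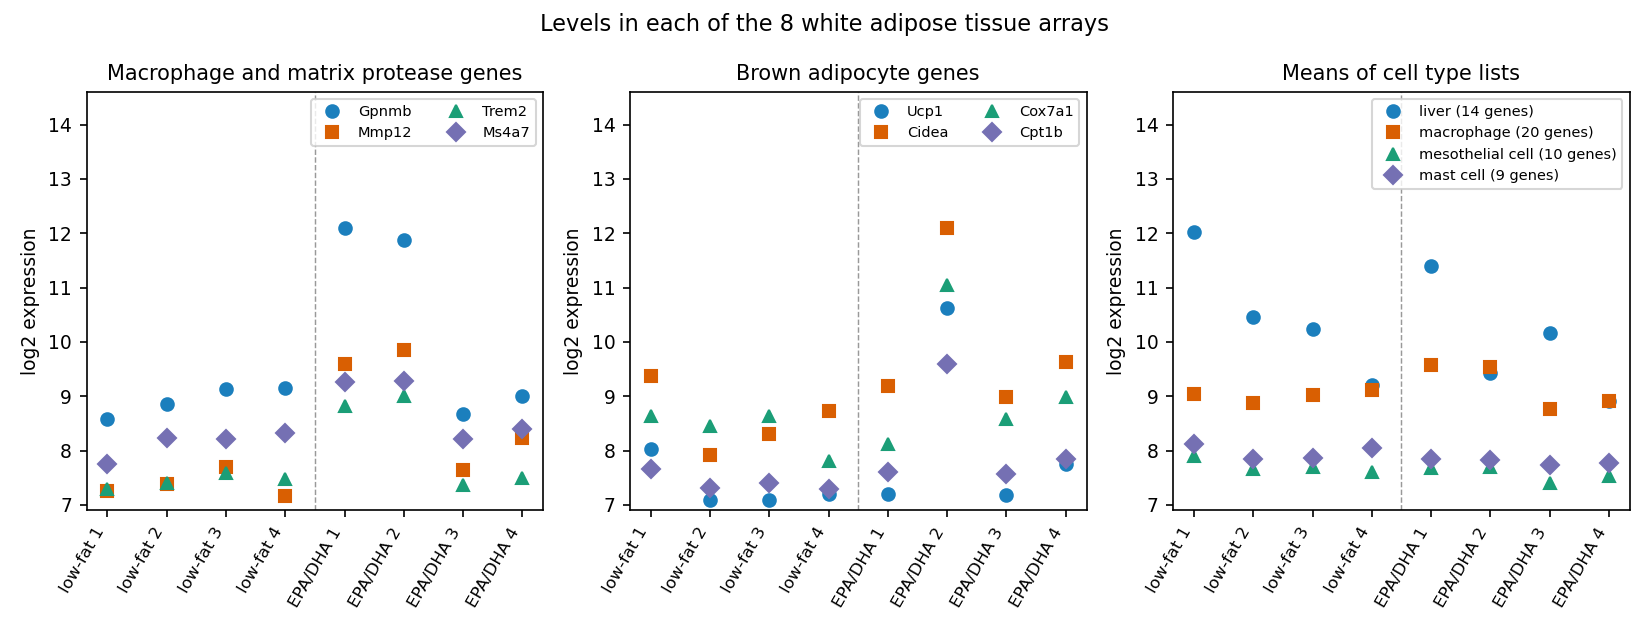
Values on each of the 8 arrays: log2 expression of macrophage genes (Gpnmb, Mmp12, Trem2, Ms4a7) and brown adipocyte genes (Ucp1, Cidea, Cox7a1, Cpt1b), and mean log2 level of the liver, macrophage, mesothelial and mast cell lists. EPA/DHA arrays 1 and 2 stand above the rest for the macrophage genes, EPA/DHA array 2 for the brown adipocyte genes, and array 1 of either diet for the liver list.

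Other cell type lists moved with single arrays or in small steps. Of 14 liver markers 0 were above 0, with a median of -0.49, and their mean ran over 12.03, 10.47, 10.24 and 9.21 in the low-fat arrays and 11.40, 9.44, 10.16 and 8.92 with EPA/DHA, so liver transcripts such as Apoa1 (-0.77 ± 1.0, adjusted p = 0.911) differed more within a diet than between diets. Of 9 mast cell markers 1 was above 0, their mean was 7.85 to 8.12 in the low-fat and 7.73 to 7.85 in the EPA/DHA arrays, and Hdc, the histidine decarboxylase that makes histamine, differed by -0.39 ± 0.12 (adjusted p = 0.452). Of 10 mesothelial markers 0 were above 0, with a median of -0.08 and 0 at an unadjusted p of 0.05 or less. Of 14 endothelial markers 2 were above 0, and their mean was 9.44 to 9.68 against 9.44 to 9.48. S100a9, a neutrophil protein, was high in EPA/DHA array 1 alone, at 8.91 beside 7.25 to 7.41 in the other three and 7.16 to 7.20 in the low-fat arrays. Of 6 Schwann cell markers 1 was above 0 and 3 were lower at an unadjusted p of 0.05 or less, beside 4.52% of all genes. Of 5 erythroid markers 4 were above 0. Their mean was 8.99 to 9.06 in the low-fat and 9.15 to 9.26 in the EPA/DHA arrays, without overlap. Lists of progenitors and fibroblasts (6 of 12 above 0), T and NK cells (6 of 10) and B cells (2 of 5) were mixed. The part of these cell types in the gene lists was not tested beyond the fits named here.

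In the remaining pathways up to 4 members of a list were higher and up to 3 lower at an unadjusted p of 0.05 or less. Over all genes 4.54% were higher and 4.52% lower. Matrix genes were above 0 in 10 of 29, with 1 higher, Mmp12, and 2 lower at an unadjusted p of 0.05 or less, the collagen cross-linker Lox (-0.40 ± 0.12, adjusted p = 0.437) and the protease inhibitor Timp3 (-0.40 ± 0.14, adjusted p = 0.526); the list's median was -0.06 beside 0.23 on corn oil. For eicosanoid and epoxide metabolism, the route by which EPA and DHA become lipid mediators, 16 of 21 were above 0 with 1 higher and 2 lower. Ephx1, the microsomal epoxide hydrolase, separated the high fat diets: it read 10.22, 10.19, 9.88 and 9.86 on the low fat diet, 9.86, 10, 9.59 and 9.50 with EPA/DHA and 10.87, 10.69, 10.70 and 10.59 with corn oil, and EPA/DHA was below corn oil by -0.98 ± 0.12 (adjusted p = 0.00441). Of 30 antioxidant genes 15 were above 0, with 4 higher, among them Sod2 (0.22 ± 0.06, adjusted p = 0.422), and 3 lower. Peroxisomal genes, classical targets of the receptor PPAR-alpha, were above 0 in 17 of 29 with 0 higher and 1 lower and a median of 0.02. Against corn oil 4 of the 29 passed, all higher with EPA/DHA, where 2.34% of all genes passed in either direction. In branched-chain amino acid breakdown 10 of 18 were above 0, with 0 higher and 3 lower at an unadjusted p of 0.05 or less. The median of that list was 0.02 beside -0.32 on corn oil. Of its 18 members 5 passed as higher with EPA/DHA than with corn oil, beside 2.34% of all genes in either direction. Ivd, the isovaleryl-CoA dehydrogenase of this pathway, differed by -0.24 ± 0.10 with EPA/DHA (adjusted p = 0.591) and -0.74 with corn oil (adjusted p = 0.00579). Of 14 cell cycle genes 13 were above 0, 1 of them at an unadjusted p of 0.05 or less and with a median of only 0.04. Of 20 heat shock genes 5 were above 0, and of 16 genes of the amino acid stress response 6, with medians of -0.05 and -0.02.

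Genes far from low-fat on corn oil were then read in the EPA/DHA arrays. The corn-oil values chose these genes and are given as a description. That comparison uses the same low-fat arrays and called 517 of the 13349 genes (3.87%). Ubd, the ubiquitin-like protein of the interferon response, read 7.66, 8.01, 7.96 and 8.05 on the low fat diet, 8.11, 8.25, 7.62 and 7.85 with EPA/DHA and 10.14, 10.55, 10.18 and 11.04 with corn oil. EPA/DHA differed from low-fat by 0.04 ± 0.20 (95% interval -0.40 to 0.48, adjusted p = 0.984). Tph2, a tryptophan hydroxylase, read 7.68, 8.12, 8.11 and 7.28 against 7.45, 8.91, 7.79 and 8.16 with EPA/DHA, a difference of 0.28 ± 0.33 (adjusted p = 0.9), where the corn-oil arrays were at 10.01 to 11.13. In neither gene did an EPA/DHA array reach the lowest corn-oil array. Rnase2a, an eosinophil-type ribonuclease with near-identical copies that a probe may not tell apart, differed by 0.18 ± 0.26 (adjusted p = 0.924), and Ces1f, a carboxylesterase of a clustered family, by 0.04 ± 0.30 (adjusted p = 0.99).

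Other leaders of the corn-oil comparison lay between. Ccl8, a monocyte chemokine, read 7.65, 8.72, 8.54 and 8.17 against 9.46, 9.07, 8.30 and 8.91 with EPA/DHA, a difference of 0.67 ± 0.35 (adjusted p = 0.721), beside 1.83 on corn oil. Net1, a RhoA exchange factor, read 10.22, 9.70, 9.87 and 10.20 against 9.34, 9.20, 9.26 and 8.38, a difference of -0.95 ± 0.22 (adjusted p = 0.251) without overlap, beside -1.37 on corn oil. Ccl8 of EPA/DHA array 3 lay among the low-fat values and the other three were above them all. Slpi, a secreted protease inhibitor, differed by -0.53 ± 0.34 (adjusted p = 0.79) and Slc1a3, a glutamate transporter, by -0.34 ± 0.26 (adjusted p = 0.835).

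**Figure D5:**
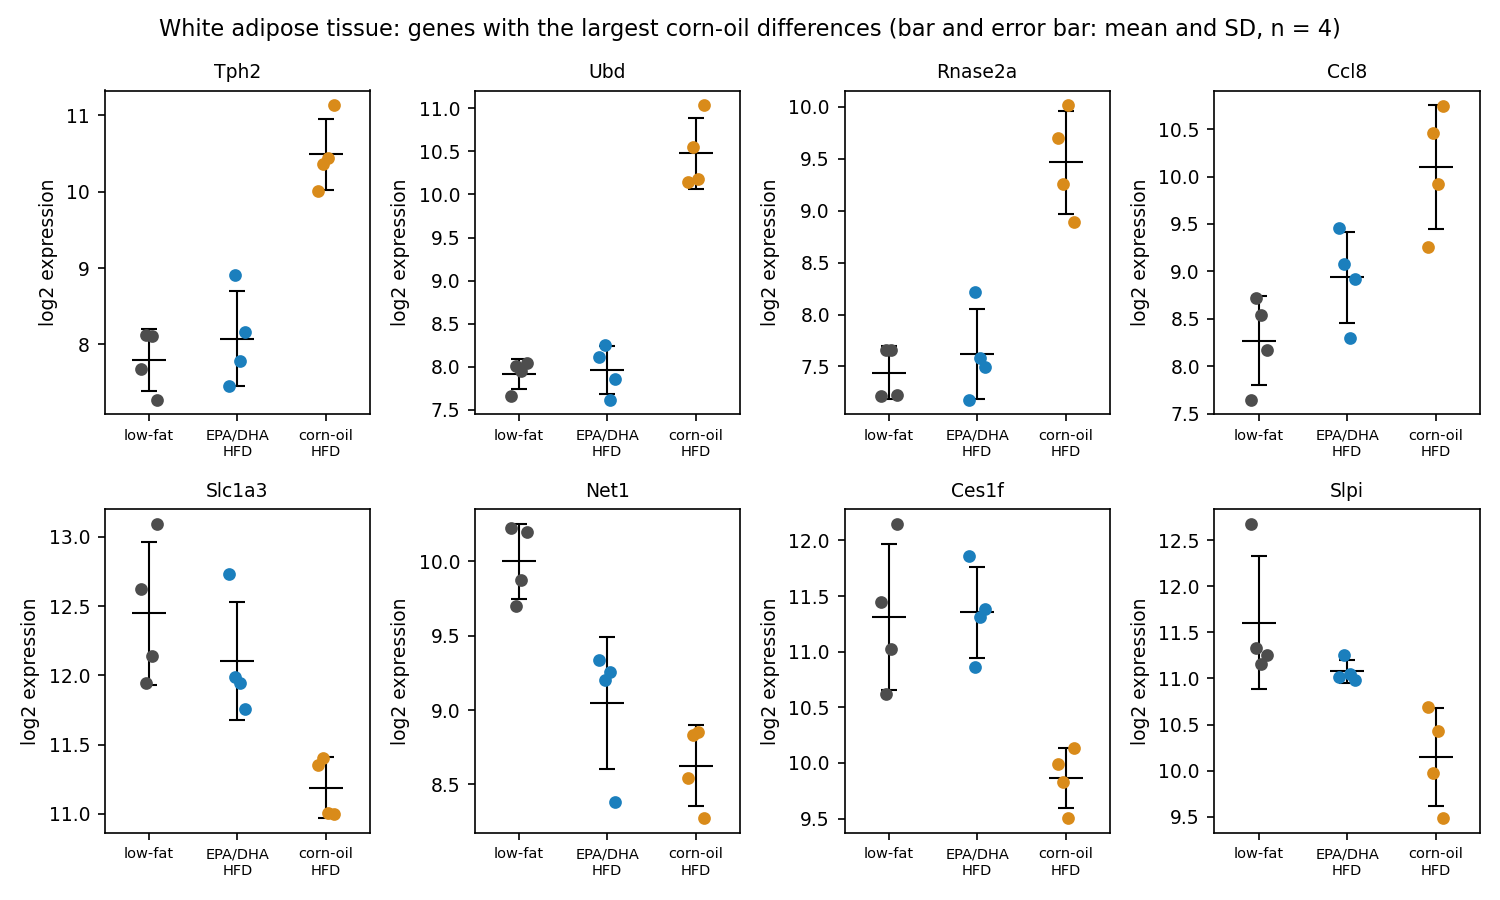
Log2 expression on each white fat array, by diet, of 8 genes among those far from low-fat on corn oil; dots are arrays, the bar is the mean and the whisker the SD (n = 4). The EPA/DHA dots of Ubd, Tph2, Rnase2a and Ces1f overlap the low-fat dots, with some of Ubd and Tph2 above them all. The EPA/DHA dots of Net1 lie below the low-fat dots.

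The difference between the diets in white fat was also set against that in brown fat, in one model over all 24 arrays. Of 14262 genes 1 passed as differing between the tissues (0.00701%), with 919 at an unadjusted p of 0.05 or less (6.44%), and in brown fat alone 1 of 13400 genes passed (0.00746%). Over probes these were 3 of 29493 (0.0102%) and 2 of 27168 (0.00736%). Of the 3 probes 2 were the called probes of Insig1, which lay above low-fat in white and below it in brown fat. The first differed by 1.02 in white and by -0.85 ± 0.15 in brown fat (adjusted p = 0.412), and white minus brown was 1.87 ± 0.20 (adjusted p = 0.000171). The other differed by 0.96 in white and by -0.66 ± 0.12 in brown fat (adjusted p = 0.412), a contrast of 1.61 ± 0.17 (adjusted p = 0.000171). Both contrasts passed in each of 21 alternatives, 16 of them without 1 array. Insig1's brightest probe gave 0.40 and -0.01, a contrast of 0.41 ± 0.22 (adjusted p = 0.813), so Insig1 is not among the genes counted. The third probe, and the gene that differed, was Tspan18, a tetraspanin of endothelium: its difference was 0.08 ± 0.07 in white fat (adjusted p = 0.848) and -0.69 ± 0.09 in brown fat (adjusted p = 0.0582), and white minus brown was 0.77 ± 0.12 (adjusted p = 0.0165). Its second probe gave a contrast of 0.23 ± 0.11 (adjusted p = 0.794). Leaving out 1 array at a time left 0 to 2 genes past the threshold, and the Tspan18 contrast, from 0.69 to 0.87, passed in 11 of 16 such fits; it did not without brown fat low-fat array 1 or 3, brown fat EPA/DHA array 3 or 4, or white fat low-fat array 2. The next 5 by p did not pass. Pdhb differed by 0.69 in white and -0.31 in brown fat, a contrast of 1.0 ± 0.19 (adjusted p = 0.121). Coq10a, a coenzyme Q binding protein of mitochondria, gave 0.33 and -0.25, a contrast of 0.58 ± 0.11 (adjusted p = 0.121), and Prkaca, the catalytic subunit of protein kinase A, 0.33 and -0.21, a contrast of 0.54 ± 0.10 (adjusted p = 0.121). Rprml gave -0.57 and -0.12, a contrast of -0.45 ± 0.08 (adjusted p = 0.121), and the ion channel P2rx6, near the floor in white fat, 0.01 and -0.17, a contrast of 0.19 ± 0.04 (adjusted p = 0.121). The clock genes Dbp, with -1.55 in white and -1.28 in brown fat, and Arntl, with 0.37 and 0.38, lay on the same side of 0 in both tissues without passing in either, and the contrast between tissues had an adjusted p of 0.978 for Dbp and 0.997 for Arntl. The labels do not say whether arrays of the same number in both tissues came from 1 mouse.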

How the data were processed

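The authors deposited 1 table of log2-scale, normalised Illumina bead array values for 24 arrays of mouse white and brown fat, made with lumi 2.18.0 per the submitters' processing notes. The sorted values of any 2 arrays differ by at most 0.0069, which is what quantile normalisation leaves. Scanner intensities, detection calls and array positions were not used here, so depth is unknown and the number of arrays limits the precision. Of 45281 probes, 34885 had 1 gene symbol in GEO's platform annotation, 18 had several and 10378 none; 34818 matched a RefSeq gene, giving 19053 genes. Probes above the 40th percentile of mean white fat level (7.11) were tested with limma 3.58.1 in R 4.3.3, two-sided, with 1 mean per diet over the 12 white fat arrays (9 residual degrees of freedom) and Benjamini-Hochberg adjustment over 27168 probes. A gene is read from its brightest named probe by the mean of the 24 arrays. The brown fat contrast used all 24 arrays.

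The comparison and the 42 gene lists (811 members, 729 with a named probe) were chosen with earlier results of these data known. Named genes are those past the threshold, or the 10 smallest p where fewer than 10 pass; list members past the threshold; the 6 smallest p for the contrast with brown fat; and Lep, Adipoq, Ucp1, Fasn, Scd1, Mest, Insig1, Cd36, Lpl, Pck1 and Ccl2. No list member passed, so the further list members named were chosen after their values were seen. The largest rises and falls on corn oil, among genes called there without overlap, were added too. Alternatives covered the filter, normalisation, prior, array weights, samples in the fit, probe choice, replicate block, marker lists as covariates and single arrays left out. The labels give 4 mice per diet but no litter, cage or batch, so p-values measure the spread between these arrays. The procedure was tested on simulated data first. Promoter windows are RefSeq's, GRCm38.p6.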

Additional observations from a re-analysis of the deposited data

Results flagged for a closer look

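Of 280 groups of 4 arrays examined, 17 had 1 array far from the others by Dixon's criterion. That share is close to the about 1 in 20 that chance alone gives. EPA/DHA array 2 stood apart for Ucp1 (10.63, others 7.18 to 7.76) and Cpt1b (9.59, others 7.58 to 7.85). It also stood apart in the mean of the thermogenic list (9.78, others 8.34 to 8.48), the brown adipocyte list (9.76, others 8.02 to 8.31) and the list of mitochondrial fatty acid oxidation (10.38, others 9.95 to 9.98). EPA/DHA array 1 stood apart for the neutrophil gene S100a9 (8.91, others 7.25 to 7.41), for H2-D1 (12.68, others 12.42 to 12.46) and in the mean of the skeletal muscle list (7.86, others 8.10 to 8.13). EPA/DHA array 4 did so for Adipoq (14.42, others 14.17 to 14.20) and Net1 (8.38, others 9.20 to 9.34).

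Low-fat array 1 was apart for Ucp1 (8.02, others 7.08 to 7.21), Slpi (12.68, others 11.16 to 11.33), Adipoq (14.14, others 14.35 to 14.39) and the thermogenic list mean (8.59, others 8.13 to 8.20). Low-fat array 3 was apart for Acsl3 (8.06, others 7.88 to 7.91) and Lpl (14.48, others 14.62 to 14.63), and low-fat array 4 for Cd36 (7.69, others 7.46 to 7.50). Between tissues, the EPA/DHA effect in white fat minus that in brown fat was 1.87 and 1.61 at 2 Insig1 probes and 0.77 at the brightest Tspan18 probe, and these contrasts passed their test. The brightest Insig1 probe (0.41, adjusted p = 0.813) and the second Tspan18 probe (0.23, adjusted p = 0.794) did not pass in limma.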

How the results depend on the processing

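The count of genes called is small and unsteady. Against 4 genes (2 higher, 2 lower) and 13 probes, 0 genes in either direction passed with no filter (1 probe), with the 8 arrays alone (0 probes), with the macrophage mean as a covariate (0 probes), without EPA/DHA arrays 1 and 2 (0 probes) and without array 1 of both diets (1 probe). In limma these settings gave 1206 to 1554 genes at an unadjusted p of 0.05 or less. These last 3 settings, the brown adipocyte covariate and the setting without arrays of Ucp1 above 9 were chosen after seeing the data. The fit over 24 arrays gave 2 genes (0 higher, 2 lower; 7 probes), Prtn3 and Rprml. The liver covariate gave 2 (0 higher, 2 lower; 5 probes), Fgfrl1 and Retnla, and the brown adipocyte covariate 2 others (0 higher, 2 lower; 5 probes), Dbp and Ypel5. The trended and robust prior gave 4 (3 higher, 1 lower), Mcrip2, Msmo1, Pdhb and Rprml, and the brightest probe in white fat 3 (1 higher, 2 lower), Qrsl1, Fgfrl1 and Rprml. Leaving out 1 array at a time gave 0 to 2 genes, 0 to 2 higher and 0 lower, and 0 to 9 probes, with 1036 to 1314 genes at an unadjusted p of 0.05 or less. For the contrast between tissues, with 1 gene called, array weights gave 2, and leaving out 1 array 0 to 2. EPA/DHA against corn oil called 313 genes, and 118 to 311 without 1 array.

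Same-numbered arrays of low-fat and EPA/DHA had deviations that correlated at 0.50, -0.01, 0.15 and 0.23. With corn oil, arrays of number 1 correlated at 0.55 (low-fat) and 0.45 (EPA/DHA), and those of the other numbers at -0.27 to 0.30. The numbers were not taken to pair mice. Structure shared by the arrays of number 1 was not tested beyond the fits given here. With the replicate number as a block, 2 genes (0 higher, 2 lower), C1qtnf1 and Rprml, and 5 probes passed, while limma's adjusted p was 0.136 for Fgfrl1, 0.0587 for Qrsl1 and 0.157 for Mcrip2. The block left 0 genes for the contrast between tissues, and 267 for EPA/DHA against corn oil.

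Of the differences of named genes under the alternatives, 2334 kept their direction and their side of the threshold, 69 lost the call, 6 gained one (Adal, Pdhb, Msmo1 and Dbp as given above, and Insig1 and Ndrg1 with the most variable probe) and 41 changed sign. None of the sign changes concerned a gene past the threshold. Lep ran from -0.06 to 0.325 without 1 array (-0.027 without low-fat array 1), Mest from -0.723 to 0.031, Cd36 from -0.066 to 0.054, Lpl from -0.047 to 0.025, Ubd from -0.058 to 0.153, Rnase2a from -0.019 to 0.327 and Ces1f from -0.19 to 0.321. With the brown adipocyte covariate Ucp1 was -0.432, Lpl 0.003, Tspan18 -0.016, Tph2 -0.147, Ubd -0.161 and Cox7a1 -0.058. With the macrophage covariate Cd36 was 0.025, Ubd -0.099 and Ces1f -0.020, and with the liver covariate Lpl was 0.010. Without EPA/DHA arrays 1 and 2, Cd36 was 0.135, Ccl2 -0.001, Tspan18 -0.023, P2rx6 -0.007, Ubd -0.182, Gpnmb -0.084 and Trem2 -0.007. Without the arrays of Ucp1 above 9, Cd36 was 0.034, Ubd -0.058 and Rnase2a -0.019, and without array 1 of both diets Cd36 was 0.031, Ubd -0.096 and Ces1f -0.081. Array weights gave 0.034 for Cd36, and the most variable probe -0.043 for P2rx6 and -0.056 for Aqp7. The cause of these changes was not tested.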

Other observations

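Further lipogenic genes lay above low-fat with EPA/DHA without passing the threshold. Acss2, which makes acetyl-CoA from acetate, differed by 0.85 ± 0.32 (adjusted p = 0.554), Acly, which makes it from citrate, by 0.61 ± 0.32 (adjusted p = 0.718), and Pnpla3, a lipid droplet protein induced by feeding, by 1.05 ± 0.50 (adjusted p = 0.678). Of 12 thermogenic genes 10 were above 0 with a median of 0.43, and Cox8b, a cytochrome oxidase subunit of brown fat, differed by 1.08 ± 0.47 (adjusted p = 0.63) with 13.20 in EPA/DHA array 2 beside 11.41 to 11.86 in the others of its diet. Among immediate early genes Egr2, a growth-response factor, differed by 0.49 ± 0.21 (adjusted p = 0.625) and Egr3 by 0.23 ± 0.08 (adjusted p = 0.5), opposite in sign to Klf2 and Klf4. Npr3, the clearance receptor for natriuretic peptides, read 11.71, 12.32, 12.20 and 11.40 on the low fat diet and 10.32, 11.28, 11.62 and 11.52 with EPA/DHA, a difference of -0.72 ± 0.29 (adjusted p = 0.591).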
